A study of Mus musculus with 12 samples.

Results

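Metallothionein and zinc handling transcripts were followed in the aorta of female mice of the outbred CD-1 stock. The list held 8 genes, chosen with earlier results of these mice known: the metallothionein genes Mt1, Mt2 and Mt3, the zinc-sensing transcription factor gene Mtf1, the zinc exporter gene Slc30a1, and the zinc importer genes Slc39a8, Slc39a10 and Slc39a14. They were taken by exact gene symbol from probe sets that name a single gene, among 22180 genes so measured. Of the 8 genes, 7 had a probe set of their own, 1 each. Slc30a1 had none, and the 2 probe sets that name it also name 1700034H15Rik, so their values cannot be assigned to Slc30a1 alone.

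Treated mice received CM-695, a dual inhibitor of histone deacetylase 6 and phosphodiesterase 9, intraperitoneally at 80 mg/kg, 2 h and again 1 h before sacrifice (n = 6). The other mice received saline vehicle (n = 6), given once according to the series design, so the number of injections may differ between the groups. All mice were female, and their age is not given in the sources used here. RNA of each mouse was hybridised to its own mouse gene array, and a level below is an RMA log2 value. Array medians lay between 4.69 and 4.74. A level near these medians does not separate weak expression from none. Markers of vascular smooth muscle were above the array median in vehicle tissue (9 of 9), as were 10 of 11 markers of heart muscle and 9 of 9 of fat. The samples thus held transcripts of several tissues, and in such bulk samples fewer cells of a type and less RNA per cell cannot be told apart.

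Metallothioneins are small cysteine-rich proteins that bind zinc and copper and buffer the free zinc of the cell. Their genes are switched on by MTF1, which senses zinc and binds short metal response elements in promoters, and also by glucocorticoids and by inflammatory cytokines. Exporters of the SLC30 family move zinc out of the cytosol, importers of the SLC39 family move it in, and metallothioneins hold what the cytosol contains. MTF1 activates Mt1, Mt2 and Slc30a1 and, in mouse cells, represses Slc39a10.

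The start regions of 4 of the genes are shown because metal response elements are where MTF1 is known to act on Mt1, Mt2 and Slc30a1, while Mt3 belongs to the same gene cluster and is not induced by metals in most tissues. They are RefSeq sequences of build GRCm38.p6, all on the plus strand, running from 250 bases before the annotated start to 30 bases after it. Capitals mark matches to the core letters TGCACNC or TGCGCNC on either strand. The stretches are chr8:94178839-94179118 for Mt1, chr8:94172368-94172647 for Mt2, chr8:94152357-94152636 for Mt3 and chr1:191906531-191906810 for Slc30a1.
Mt1: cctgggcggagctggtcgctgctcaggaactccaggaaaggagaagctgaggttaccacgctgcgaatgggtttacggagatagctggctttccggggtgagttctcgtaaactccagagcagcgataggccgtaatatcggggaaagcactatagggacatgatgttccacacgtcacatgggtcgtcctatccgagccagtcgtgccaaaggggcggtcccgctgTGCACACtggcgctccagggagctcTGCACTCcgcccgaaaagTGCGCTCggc
Mt2: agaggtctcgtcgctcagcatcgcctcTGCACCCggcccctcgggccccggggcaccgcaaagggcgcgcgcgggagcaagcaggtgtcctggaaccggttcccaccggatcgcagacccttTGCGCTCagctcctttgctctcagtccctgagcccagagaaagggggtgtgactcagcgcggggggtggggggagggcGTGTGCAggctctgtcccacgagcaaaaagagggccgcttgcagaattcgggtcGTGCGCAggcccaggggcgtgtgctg
Mt3: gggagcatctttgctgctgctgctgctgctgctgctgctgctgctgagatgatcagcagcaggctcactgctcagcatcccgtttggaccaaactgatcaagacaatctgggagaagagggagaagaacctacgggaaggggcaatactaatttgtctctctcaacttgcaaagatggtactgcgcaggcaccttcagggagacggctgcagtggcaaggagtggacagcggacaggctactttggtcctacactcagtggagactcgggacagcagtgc
Slc30a1: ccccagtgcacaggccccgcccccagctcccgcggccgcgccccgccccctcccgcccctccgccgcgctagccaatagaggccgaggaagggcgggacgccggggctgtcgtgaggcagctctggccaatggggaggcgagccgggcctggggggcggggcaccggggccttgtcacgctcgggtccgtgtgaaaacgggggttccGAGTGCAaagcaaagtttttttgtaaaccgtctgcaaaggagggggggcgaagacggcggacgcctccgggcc

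RefSeq promoter windows of 300 bases (250 before the start, 50 after) were found for 7 of the 8 genes, Slc39a14 being the other. Mt2 held 4 matches, at bases -223 to -217, -128 to -122, -50 to -44 and 5 to 11 from the start, and Mt1 held 3, at -23 to -17, 3 to 9 and 21 to 27. Positions are counted from the annotated start, and bases more than 50 after it were not searched. The counts can therefore miss elements outside the windows. Slc30a1 held 2 and Mt3 held 1; the second match of Slc30a1 and that of Mt3 lie beyond the printed stretch. Slc39a8 held 1 match in 1 of its 2 windows, and neither the window of Mtf1 nor the 2 windows of Slc39a10 held any. Among 32851 mouse promoter windows of this length, 25.7% held at least 1 match, 1.97% at least 3 and 0.517% at least 4. A glucocorticoid response element was searched on both strands as GAACA and TGTTC with 3 bases between them. It was in 0 of the 9 windows of these genes and in 0.0578% of all windows. With so rare a pattern 0 of 9 is uninformative, and elements more than 250 bases before the start were not searched. A match is a run of letters and not a measured binding site.

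Mt1 and Mt2, the metallothionein genes expressed in most tissues, both fell after CM-695. Mt1 ran from 10.04 to 10.29 (median 10.20) in CM-695 mice and from 10.84 to 11.26 (median 11.04) in vehicle mice. The groups did not overlap, and the spread between mice was small on both sides. The difference was -0.85 on the log2 scale (SE 0.087, limma adjusted p = 0.000986), a 1.81-fold fall, and it ranked 8 among all 41345 probe sets by p-value.

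Mt2 ran from 8.99 to 10.21 (median 9.78) in CM-695 mice and from 10.60 to 11.38 (median 10.98) in vehicle mice. Again every treated mouse lay below every vehicle mouse, but the treated mice were scattered. Its difference was -1.24 (SE 0.20, limma adjusted p = 0.0341), a 2.36-fold fall. This call depended on single mice: without any 1 of CM-695 mice 3, 4, 5 and 6 or vehicle mice 1, 2, 3 and 6 the adjusted p of Mt2 was over the threshold (0.0183 to 0.0871 over the 12 omissions). Mt1 passed under each of these omissions (adjusted p 0.00134 to 0.00490).

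Of the 7 measured genes, 2 thus passed the threshold of 0.05, both lower, where 0.131% of all probe sets passed as lower and 0.155% in either direction. None of the 7 passed as higher, as 0.0242% of probe sets did. At an unadjusted limma p under 0.05 there were 3 of 7 (Mt1, Mt2 and Slc39a14), against 9.13% of probe sets. Mt1 and Mt2 were also the genes with every treated mouse below every vehicle mouse, a pattern seen in 0.542% of probe sets; none had every treated mouse above, as 0.37% of probe sets had. Since the list was drawn up with the Mt1 and Mt2 results known, this count is not an independent finding.

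**Figure D1:**
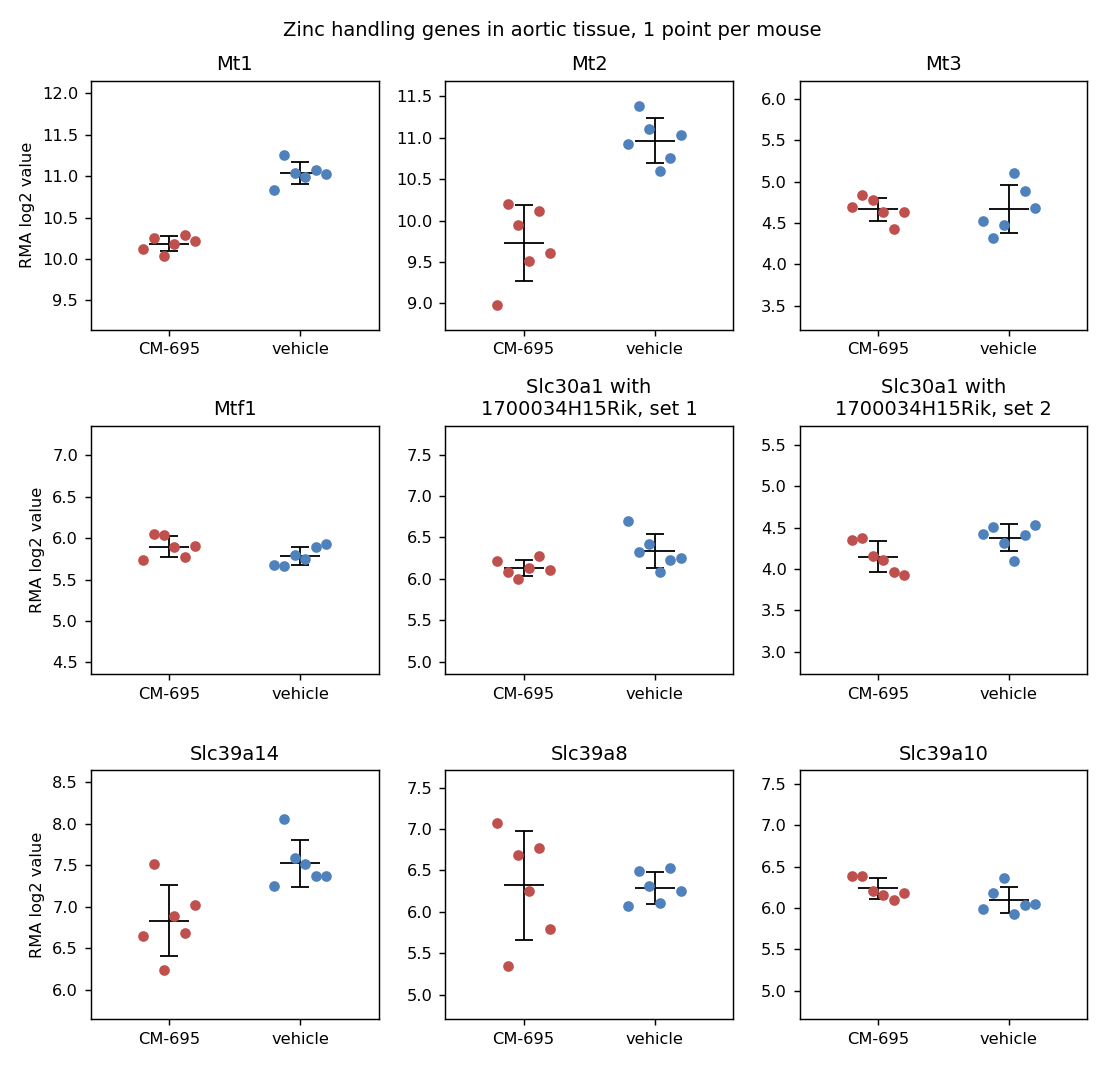
Level (RMA log2 value, y axis) of each zinc handling gene in 6 CM-695 mice (left) and 6 vehicle mice (right), 1 point per mouse, with the mean and SD as a bar; every panel spans 3 log2 units. Mt1 and Mt2 separate the groups, Slc39a14 lies below the whole vehicle range in 5 of 6 treated mice, and Slc39a8 is scattered among treated mice.

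The fall of Mt1 was uniform and that of Mt2 was not. Within groups Mt1 had a pooled SD of 0.117, smaller than that of all but 7.25% of the 22180 genes, whereas Mt2 had 0.376, larger than that of 89.7% of genes. CM-695 mouse 1 had the lowest Mt2 level at 8.99 while its Mt1 level of 10.12 lay within the range of the other treated mice. The per-mouse difference Mt2 minus Mt1 averaged 0.38 log2 lower after CM-695 than after vehicle (exact permutation test, two-sided p = 0.0801, chosen after the values were seen). Without CM-695 mouse 1 it was 0.25 lower (exact permutation test, p = 0.154), and without CM-695 mouse 2 or 3 it was 0.46 lower (exact permutation test, p = 0.0433 and 0.0498). A larger fall of Mt2 than of Mt1 was therefore not established. The 2 genes are close paralogues, and probes may share some signal.

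**Figure D2:**
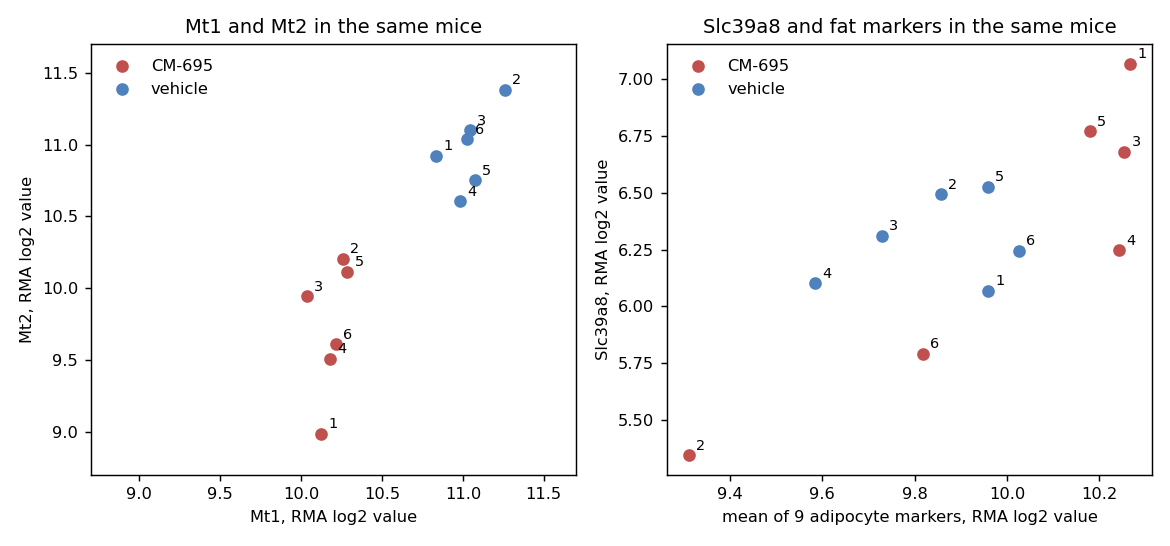
Left: Mt2 against Mt1 level (both RMA log2 values) in 6 CM-695 and 6 vehicle mice, numbered within each group. Treated mice span 8.99 to 10.21 for Mt2 and 10.04 to 10.29 for Mt1. Right: Slc39a8 level against the mean of 9 adipocyte markers in the same mice; CM-695 mouse 2 is lowest on both axes.

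The other genes of the metallothionein cluster gave no detectable difference. Mt3, known for its role in brain, ran from 4.42 to 4.83 (median 4.66) in CM-695 mice and from 4.32 to 5.11 (median 4.60) in vehicle mice, close to the array median in both. Its difference was -0.00 (SE 0.13, 95% confidence interval -0.28 to 0.28). Mt4, a metallothionein of stratified epithelia outside the 8 genes, measured 3.66 ± 0.19 in CM-695 mice and 3.65 ± 0.22 in vehicle mice (SD, n = 6 each), below the array medians.

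The cluster's neighbours on chromosome 8 were read as well, taking the 5 protein-coding genes on each side in the RefSeq order, of which 9 were measured. None passed the threshold in limma, and 1 had an unadjusted p under 0.05, as had 9.13% of all probe sets. That 1 was Herpud1, a membrane protein gene of the endoplasmic reticulum stress response, with a median of 8.60 in CM-695 mice and 9.31 in vehicle mice (difference -0.64, SE 0.17, limma adjusted p = 0.214). Nup93, a nuclear pore gene next to Mt1, differed by -0.06 (SE 0.096). Over the 9 neighbours the differences ran from -0.64 to 0.17.

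Mtf1 itself gave no call. It ran from 5.73 to 6.05 (median 5.90) in CM-695 mice and from 5.67 to 5.93 (median 5.78) in vehicle mice. The groups overlapped, with 2 of 6 treated mice above every vehicle mouse, and the difference was 0.11 (SE 0.089, 95% confidence interval -0.08 to 0.30, limma adjusted p = 0.740). A second probe set, which names Mtf1 with 1110065P20Rik, differed by 0.07 (SE 0.095). Both intervals exclude a fall as large as that of Mt1, the second reaching down to -0.14. MTF1 is controlled largely through zinc binding and entry into the nucleus, which a transcript level does not measure.

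Slc30a1, the zinc exporter of the plasma membrane and a direct MTF1 target, could be read only together with 1700034H15Rik. The first of the 2 joint probe sets ran from 6.00 to 6.28 (median 6.12) in CM-695 mice and from 6.08 to 6.70 (median 6.29) in vehicle mice. The groups overlapped, with 2 of 6 treated mice below the vehicle range, and the difference was -0.20 (SE 0.10, limma adjusted p = 0.594). The second probe set, at medians of 4.14 after CM-695 and 4.42 after vehicle, below the array medians, differed by -0.23 (SE 0.11, limma adjusted p = 0.551). Their unadjusted p-values were 0.0770 and 0.0513, and neither gave a call.

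Among the 3 importers, Slc39a14 had the largest difference. SLC39A14 carries zinc, iron and manganese, and its gene is induced by interleukin 6 in liver. It ran from 6.23 to 7.52 (median 6.79) in CM-695 mice and from 7.25 to 8.06 (median 7.44) in vehicle mice. In 5 of 6 treated mice it lay below every vehicle mouse; the exception was CM-695 mouse 2 at 7.52. The difference was -0.69 (SE 0.19, 95% confidence interval -1.11 to -0.27), or 1.62-fold, which did not pass over all probe sets (limma unadjusted p = 0.00340, adjusted p = 0.258).

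Mouse 2 was the highest of its group for Slc39a14 on both sides, at 7.52 in CM-695 and 8.06 in vehicle mice. The same CM-695 mouse had the highest mean of 9 smooth muscle markers (10.72, against 8.72 to 9.78 in the other treated mice). Smooth muscle marker means were 9.44 ± 0.74 in CM-695 mice and 9.70 ± 0.45 in vehicle mice (SD, n = 6 each). In a fit with that mean as a covariate, added once the values were known, Slc39a14 differed by -0.55 (SE 0.11, limma adjusted p = 0.0618). Without CM-695 mouse 2 the difference was the largest of the 12 omissions, -0.83, still past no threshold (limma adjusted p 0.0792 to 0.432 over the 12).

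Slc39a8, an importer of zinc, manganese and cadmium, showed spread in place of a shift. It ran from 5.34 to 7.07 (median 6.46) in CM-695 mice and from 6.07 to 6.53 (median 6.28) in vehicle mice, so 3 of 6 treated mice lay above every vehicle mouse and 2 of 6 lay below. Its SD was 0.65 in CM-695 mice and 0.19 in vehicle mice, and the difference of means was 0.03 (SE 0.25, 95% confidence interval -0.51 to 0.56). CM-695 mouse 2, lowest for Slc39a8, also had the lowest mean of 9 adipocyte markers at 9.31, and CM-695 mouse 1, highest for Slc39a8, had the highest at 10.27. The adipocyte means lay between 9.31 and 10.27 in treated mice and between 9.58 and 10.03 in vehicle mice; their part in the spread of Slc39a8 was not tested.

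Slc39a10, the importer that MTF1 represses, was 6.09 to 6.39 (median 6.20) in CM-695 mice and 5.93 to 6.36 (median 6.05) in vehicle mice. The ranges overlapped, and 2 of 6 treated mice exceeded the vehicle range. The difference was 0.14 (SE 0.096, 95% confidence interval -0.06 to 0.35, limma adjusted p = 0.693).

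Whether the other genes fell together with Mt1 and Mt2 was tested directly, by subtracting the mean of Mt1 and Mt2 in each mouse from every probe set before the limma fit. The mean of Mt1 and Mt2 fell by 1.05 log2. Of the 5 other measured genes, 4 changed by an amount different from this: Mt3 by 1.04 more than the metallothionein mean (limma adjusted p = 0.000154), Mtf1 by 1.16 (2.10e-05), Slc39a10 by 1.19 (2.10e-05) and Slc39a8 by 1.07 (0.00147). In the same fit 96.4% of all probe sets differed from the metallothionein mean, so such a difference was the rule on the array and is no finding about these 4 genes.

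Slc39a14 was the exception, at 0.35 above the metallothionein change (95% confidence interval -0.05 to 0.75, limma adjusted p = 0.0812). Its change could be told apart neither from that of Mt1 and Mt2 nor from 0 over all probe sets. The result turned on single mice: without CM-695 mouse 3 or 5 the adjusted p was 0.0192 and 0.0410. The joint probe sets of Slc30a1 differed from the metallothionein mean by 0.85 and 0.82 (limma adjusted p = 0.000226 and 0.000269), as did 96.4% of all probe sets. Both also name 1700034H15Rik, so the size of a Slc30a1 change cannot be read from them.

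**Figure D3:**
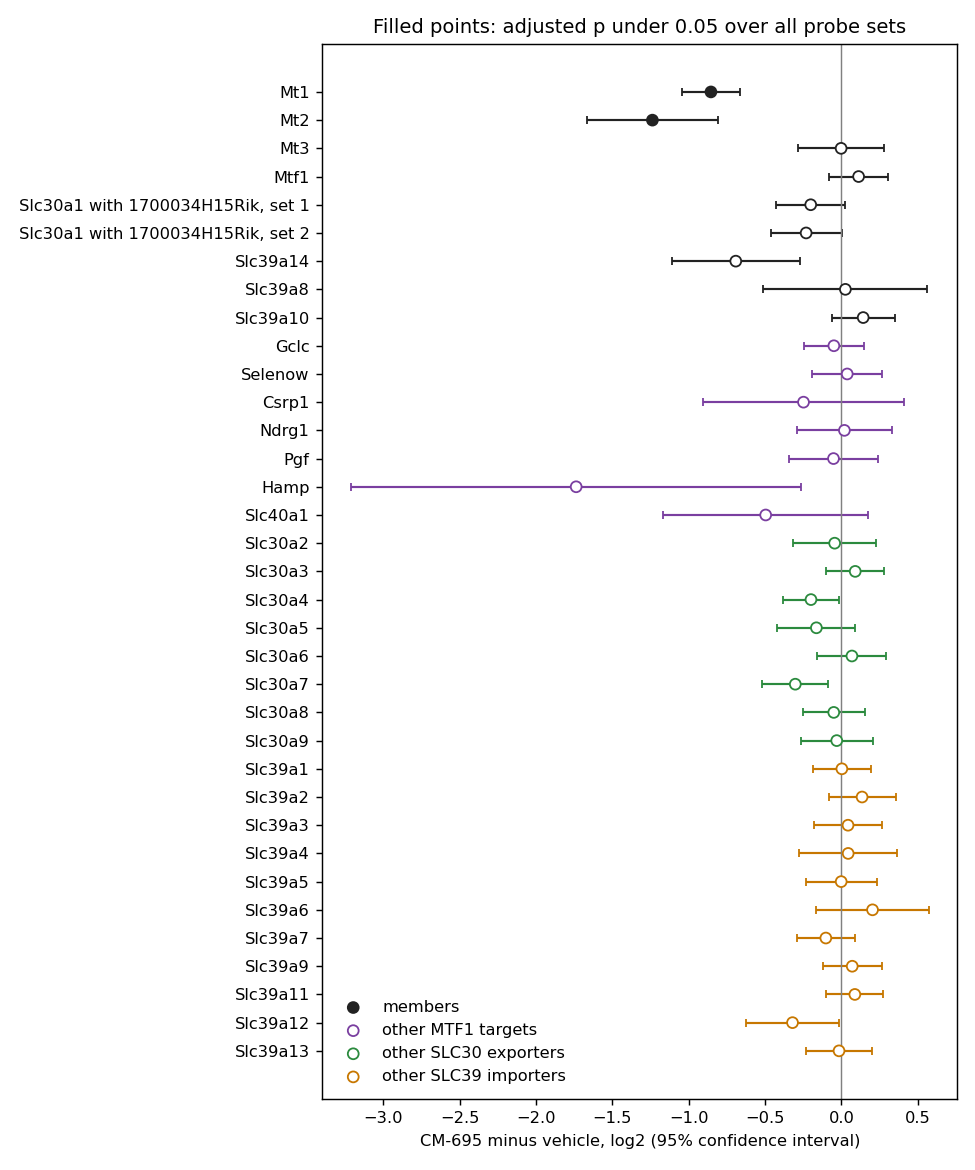
Difference CM-695 minus vehicle (log2, x axis) with its 95% confidence interval for zinc handling genes (black), other reported MTF1 targets (purple), other SLC30 exporters (green) and other SLC39 importers (orange). Filled points passed the threshold over all probe sets, which Mt1 and Mt2 did; all others are open, and most lie near 0.

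Reported MTF1 targets beyond the metallothioneins gave no call. With Mt1 and Mt2 set aside, 8 were measured, and 0 passed the threshold in limma. At an unadjusted p under 0.05 there was 1, against 9.13% of all probe sets. The median difference of the 8 was -0.05, against 0.02 over all genes, with 5 below 0 and 3 above. Slc39a10 is 1 of the 3 above 0, and it is the gene that MTF1 represses. The mean level of the 8 ran from 6.72 to 7.27 in CM-695 mice and from 7.16 to 7.64 in vehicle mice. In 3 of 6 treated mice it lay below the vehicle range. That mean leans on 1 gene, Hamp, which had the largest difference of the 8 (-1.74, SE 0.68), and it takes in Slc39a10. It is therefore no measure of a fall shared by the 8. The glutamate-cysteine ligase gene Gclc differed by -0.05 (SE 0.090), the selenoprotein gene Selenow by 0.04 (SE 0.11), the stress-responsive gene Ndrg1 by 0.02 (SE 0.14) and the placental growth factor gene Pgf by -0.05 (SE 0.13). Csrp1, a LIM protein gene of smooth muscle, differed by -0.25 (SE 0.31).

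Of these 8, the change of 2 could not be told from that of the metallothionein mean, from which 96.4% of all probe sets differed. Both were iron genes, and their changes relative to that mean had wide errors (SE 0.57 for Hamp and 0.30 for Slc40a1). Hamp, which encodes the iron hormone hepcidin, ran from 5.26 to 8.75 (median 7.05) in CM-695 mice and from 6.80 to 9.99 (median 8.90) in vehicle mice. Its difference of -1.74 had a wide error (SE 0.68, limma adjusted p = 0.459). Heart muscle markers had 0 of 11 past the threshold in limma. At an unadjusted p under 0.05 there were 8, against 9.13% of all probe sets. The mean of the heart muscle markers was 6.88 ± 0.75 in CM-695 mice and 8.02 ± 0.64 in vehicle mice (SD, n = 6 each). The part of these markers in the Hamp difference was not tested. Slc40a1, the iron exporter ferroportin, differed by -0.50 (SE 0.31, limma adjusted p = 0.666).

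The means of the same heart muscle markers ran from 5.95 to 7.90 in CM-695 mice and from 6.90 to 8.68 in vehicle mice, so 3 of 6 treated mice were below the vehicle range. With the marker mean as a covariate Mt1 differed by -0.82 (SE 0.12, limma adjusted p = 0.0501) and Mt2 by -0.95 (SE 0.25, adjusted p = 0.385), so neither passed. Without the covariate they differed by -0.85 (SE 0.087) and -1.24 (SE 0.20). The marker mean was itself lower on average after CM-695, so the fit with it cannot separate treatment from heart muscle content. In that fit 13 probe sets passed in all.

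The remaining zinc transporters gave no call. Of 8 other SLC30 exporter genes, 0 passed in limma, and the median difference was -0.05. An unadjusted p under 0.05 was found for 2, against 9.13% of all probe sets. Those 2 were Slc30a7, a Golgi zinc transporter gene (-0.30, SE 0.10, adjusted p = 0.360), and Slc30a4, whose product loads zinc into vesicles (-0.20, SE 0.086, adjusted p = 0.513). Of 11 other SLC39 importer genes, 0 passed, 1 had an unadjusted p under 0.05, and the median was 0.04. That 1, Slc39a12, was dim in both groups (median 3.60 after CM-695 and 3.85 after vehicle). Slc39a1, an importer of the plasma membrane, differed by 0.00 (SE 0.088).

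Handling of other metals gave no call either with all 12 mice. Among 10 measured copper genes 0 passed in limma, with 1 at an unadjusted p under 0.05 and a median of 0.10. It was Sco1, a chaperone gene for copper delivery to cytochrome oxidase, at 0.46 (SE 0.10, adjusted p = 0.121), and 5 of 6 treated mice exceeded the vehicle range. Without CM-695 mouse 2, its lowest, Sco1 passed (0.53, SE 0.085, adjusted p = 0.0284). Among 10 measured iron genes 0 passed, with 1 at an unadjusted p under 0.05 and a median of -0.11. It was the heme oxygenase gene Hmox1, which metals and oxidants induce, at -0.28 (SE 0.099, adjusted p = 0.407). NRF2 and oxidative stress genes (11 measured) had 0 past the threshold and a median of 0.09. At an unadjusted p under 0.05 there were 4, 3 higher and 1 lower, against 9.13% of all probe sets in either direction.

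Other inducers of metallothionein genes were compared by their own target genes. Several genes induced by glucocorticoids fell: apart from Mt1 and Mt2, 5 of 18 passed as lower and 0 as higher, where 0.131% of all probe sets passed as lower, with a median of -0.48 against 0.02 over all genes. The 5 were Ddit4, Errfi1, Nfkbia, Per1 and Sgk1. With Mt1 and Mt2 counted, 7 of 20 passed, and with the replicate number as a block in the fit 1 did, Mt1. With the heart muscle marker mean as a covariate 1 of the 20 did, Nfkbia (-1.09, SE 0.13, limma adjusted p = 0.0112), and without any 1 of CM-695 mice 3 and 5 or vehicle mice 2, 3 and 6 it was 4. The list was written with earlier results of these mice known, so this is not independent evidence. The 18 include the receptor gene Nr3c1 itself, which differed by 0.05 (SE 0.11). It was 1 of 4 with a difference above 0, beside Pdk4 (0.44, SE 0.23), Cdkn1a (0.37, SE 0.17) and Tat (0.30, SE 0.30). Tat lay near the array medians (median 4.69 after CM-695 and 4.63 after vehicle). Its level was 6.59 in CM-695 mouse 5, against 4.39 to 4.80 in the other treated mice. Zbtb16 (-0.19, SE 0.29) and Dusp1 (-0.33, SE 0.25) overlapped between the groups and did not pass. Fkbp5 (-1.47, SE 0.27, limma adjusted p = 0.0550), Klf9 (-0.62, SE 0.12, 0.0880), Cebpd (-0.75, SE 0.16, 0.107) and Tsc22d3 (-0.57, SE 0.13, 0.140) did not pass either. In each of these 4 all 6 treated mice lay below every vehicle mouse, as in 0.542% of all probe sets. At an unadjusted limma p under 0.05 there were 11 of the 18, 10 of them lower, against 9.13% of all probe sets. For 7 of the 18 the change could not be told from that of the metallothionein mean, from which 96.4% of all probe sets differed. As the list was written with results known, that count is no independent finding either.

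Genes of interleukin 6 signalling and the acute phase (14 measured) had 0 past the threshold in limma and a median of -0.06. At an unadjusted p under 0.05 there were 4, 3 lower and 1 higher, against 9.13% of all probe sets in either direction. The interleukin 6 receptor gene Il6ra did not overlap between the groups, at 6.90 ± 0.26 in CM-695 mice and 7.67 ± 0.38 in vehicle mice (SD, n = 6 each; difference -0.77, SE 0.18, limma adjusted p = 0.133). Stat3, the transcription factor downstream of it, did not overlap either, at medians of 8.17 after CM-695 and 8.34 after vehicle (difference -0.26, SE 0.092, limma adjusted p = 0.409). Every treated mouse lay below every vehicle mouse in 0.542% of all probe sets, and neither Il6ra nor Stat3 passed the threshold. The STAT3 feedback target Socs3 overlapped (-0.15, SE 0.14), and Il6 was far below the array median in both groups.

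Genes whose profile over the 12 mice lay closest to each metallothionein were named by the smallest root-mean-square distance between profiles centred on their own mean, over 17588 genes. Nearest to Mt1 were Resf1 (distance 0.16 log2), which acts in silencing of retroelements, Nfkbia (0.17), the NF-kB inhibitor, Coq10b (0.17), a coenzyme Q binding protein gene, Arrdc2 (0.18), an arrestin domain gene, and the clock gene Per1 (0.18). All 5 passed the threshold as lower. Such genes share the group difference with Mt1 by construction.

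Nearest to Mt2 were Per1 (0.31), Rbm24 (0.32), an RNA-binding protein gene of striated muscle, Lonrf1 (0.35), the clock output factor gene Tef (0.35) and Mlf1 (0.36). These distances are larger than for Mt1, since Mt2 varied more between mice. Per1 was the gene on both lists.

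**Figure D4:**
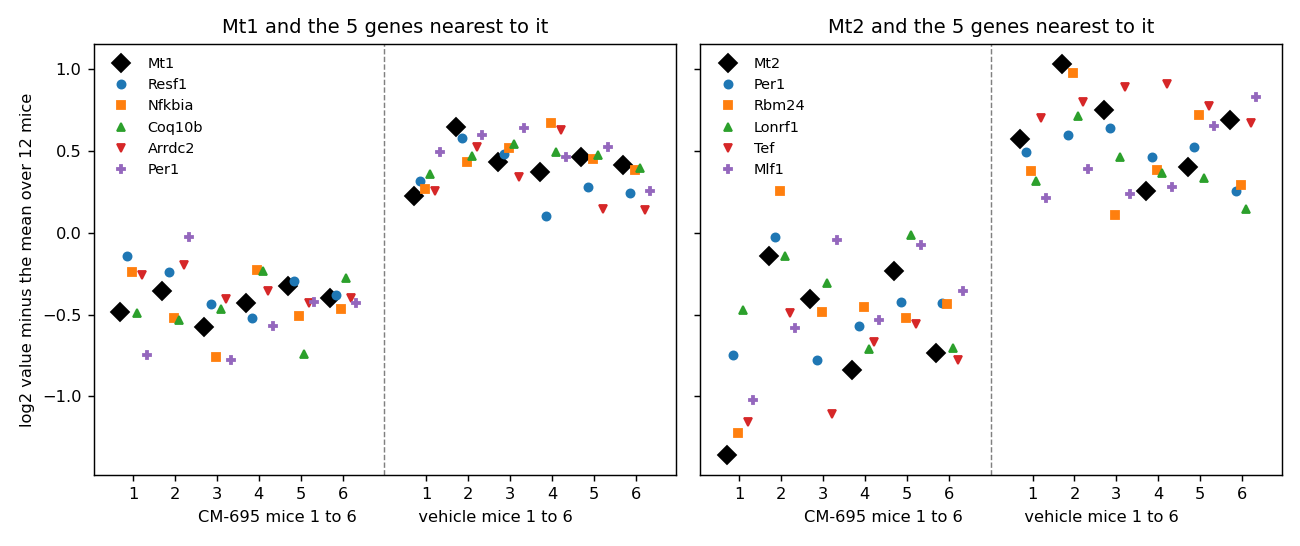
Level minus the gene's own mean over 12 mice (log2, y axis) for Mt1 (left) and Mt2 (right), as black diamonds, and the 5 genes nearest to each, by mouse (x axis; CM-695 mice left of the dashed line, vehicle mice right of it). Points lie below 0 in treated mice and above 0 in vehicle mice for every gene but Rbm24, which is above 0 in CM-695 mouse 2.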

How the data were processed

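Expression was measured in aortic tissue of 6 CM-695 and 6 vehicle mice, 1 array per mouse. The authors deposited log2 values for 41345 probe sets, made with RMA (background correction, normalization across arrays and summary per probe set) per the submitters' processing notes; which program ran it is not stated there. By the platform annotation 23521 probe sets name a single gene, 1814 name several and 16010 are unnamed here. Where a gene has several probe sets, that with the highest mean stands for it; each of the 7 measured zinc handling genes has 1, and RefSeq gene identifiers matched 7 of 7 symbols.

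Probe sets were fitted with limma 3.58.1 in R 4.3.3 (lmFit, eBayes, two-sided), with Benjamini-Hochberg adjustment over all probe sets at 0.05. A second fit subtracted the Mt1 and Mt2 mean per mouse. Both were run on simulated data drawn independently for each probe set. Such data lack variation shared between genes, as from tissue content, so they do not show how the fits behave under it. The number of arrays limits the precision. Members and gene lists were chosen with earlier results of these data known. Named genes were the members, up to 4 per list by smallest p, and the 5 nearest profiles to Mt1 and to Mt2. Mt4, the chromosome 8 neighbours, Nr3c1, Socs3, Il6 and Slc39a1 were added after values were seen. So were the lesser MTF1 targets, the remaining named glucocorticoid genes and Alb. The lists were reported MTF1 targets, other SLC30 and SLC39 genes, copper, iron, glucocorticoid, interleukin 6, NRF2 and inducible heat shock genes, and markers of 8 cell types.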

Additional observations from a re-analysis of the deposited data

Results flagged for a closer look

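Among 62 genes, probe sets and marker means with 6 mice per group, 124 groups were examined for 1 mouse standing apart (gap to the nearest mouse over 0.625 of the range), and 6 did so. Chance alone marks about 1 in 20 groups. None of the 7 zinc handling genes was among them. Sco1 was low in CM-695 mouse 2 (6.2204). Gclc was high in CM-695 mouse 5 (7.4444), and Stat3 was low in CM-695 mouse 1 (7.7977). The mean of the other SLC39 importers was high in CM-695 mouse 2 (5.9769). Slc30a7 was low in vehicle mouse 1 (5.9796), and Il6ra was high in vehicle mouse 2 (8.3981).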

How the results depend on the processing

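The fall of Mt1 kept its direction in all 22 alternatives and that of Mt2 too, while the calls were lost in 2 and 11 of them (adjusted p 0.000269 to 0.0638 for Mt1 and 0.0164 to 0.425 for Mt2). Mtf1, Slc39a10 and Slc39a14 changed neither direction nor call. With the replicate block, 15 probe sets, 1 zinc handling gene (Mt1) and 1 gene of the fixed lists passed, where 64, 2 and 7 had passed. The labels give the mice a number and do not say whether it pairs them. Correlations of same-numbered mice ran from -0.25 to 0.21, with 3 pairs over 0.1, and do not settle this. Keeping only probe sets above the median left 116 calls, 11 list genes, and 20021 probe sets unlike the Mt1 and Mt2 mean; fewer were tested there. With the cardiac covariate 13 probe sets, 0 zinc handling genes and 1 list gene passed, and with cardiac and adipocyte covariates together 18, 0 and 1; with the adipocyte covariate 111 probe sets passed and with the smooth muscle covariate 116. The causes were not tested. With 1 mouse left out, 22 to 98 probe sets, 1 to 2 zinc handling genes and 4 to 8 list genes passed. Differences near 0 changed sign: Mt3 was 0.0082 with the cardiac, 0.037 with the adipocyte, 0.061 with both and 0.0076 with the smooth muscle covariate, and -0.071 to 0.087 with 1 mouse left out. Slc39a8 was -0.19 with the adipocyte, -0.19 with both and -0.13 with the smooth muscle covariate, and -0.12 to 0.22 with 1 mouse left out. The Slc39a14 change differed from the Mt1 and Mt2 mean with the adipocyte (adjusted p = 0.0225) and the smooth muscle covariate (0.0136), as without CM-695 mouse 3 or 5. Counting probe sets that name 2 genes added no call. No zinc handling gene had a second probe set of its own, so that alternative was not run. The fits that combine 2 covariates or use smooth muscle were chosen after seeing the data.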

Other observations

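Inducible heat shock genes, which respond to cadmium and zinc as metallothionein genes do, gave no call in either direction. Of 11 measured, 0 passed the threshold in limma, 5 were higher and 1 lower at an unadjusted p under 0.05 (9.13% of all probe sets in either direction), and the median difference was 0.28 log2. In 3 of them every treated mouse lay above every vehicle mouse, as in 0.37% of probe sets. Hspa1a, an inducible HSP70 gene, ran from 5.77 to 7.72 (median 6.29) in CM-695 mice and from 3.91 to 5.07 (median 4.96) in vehicle mice, a difference of 1.87 (SE 0.35, limma adjusted p = 0.0647). The differences were 1.54 for Hspa1b (SE 0.36, adjusted p = 0.141) and 0.97 for Hsph1 (SE 0.22, adjusted p = 0.136). Hspa1a passed with the adipocyte (adjusted p = 0.0262) or smooth muscle marker mean (0.00577) as a covariate and among probe sets above the median (0.0320), and Hspa1b with either covariate (0.0465 and 0.00876).

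Marker lists of the tissues in the samples held 0 genes past the threshold in limma, and their counts at an unadjusted p under 0.05 stand against 9.13% of all probe sets. Heart muscle markers had a median of -1.60 (8 of 11 with an unadjusted p under 0.05), fibroblast markers of -0.46 (4 of 9), smooth muscle markers of -0.28 (0 of 9), adipocyte markers of 0.14 (1 of 9), endothelial markers of 0.07 (3 of 9), hepatocyte markers of 0.35 (2 of 9) and macrophage markers of -0.02 (0 of 9). Of 6 erythroid markers 1 was measured, at -0.04. Of the 2 hepatocyte markers, Ttr was higher and Cyp2e1 lower. Cyp2e1 had a median of 11.34 in vehicle mice, far above the mean of its list. The mean of the hepatocyte markers was 7.28 in CM-695 mouse 5, against 5.02 to 5.41 in vehicle mice. The albumin gene Alb was at 10.72 in that mouse and 7.87 in CM-695 mouse 4, against 4.39 to 6.19 in vehicle mice. Cyp2e1 was not raised in CM-695 mouse 5, at 10.55 against 11.10 to 12.26 in vehicle mice. The part of liver transcripts in the levels of other genes was not tested.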
